A study of Mus musculus with 24 samples.

Results

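The genes described here are those that PPARA drives in liver for burning fatty acids and making ketone bodies. The genes were taken from a list of 34 symbols, and where a gene had several probe sets the one with the highest mean over the 24 arrays was used. Of these, 33 had a probe set that the platform assigns to 1 gene, and all 33 passed the filter on low signal, out of 13118 genes tested in all. Acsl1 had none and was not analysed here. The 33 genes were grouped by role into 5 regulators, 15 mitochondrial genes, 7 peroxisomal genes, 1 ketogenic gene and 5 genes of fatty acid uptake, activation and storage.

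PPARA is a nuclear receptor that senses fatty acids. Paired with RXR, it binds direct repeats of a short half-site in the promoters of its targets, which encode the enzymes that carry fatty acids into mitochondria and peroxisomes and shorten them there. In mouse liver this program is best known for its rise in fasting, when the acetyl-CoA it yields feeds ketone body synthesis, and for its strong induction by fibrate drugs.

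Male BALB/c mice, six-week-old on arrival, received the purified AIN-93G diet alone (control) or with 0.1%, 0.5% or 1.0% phloridzin for 14 days. Phloridzin is a plant glucoside that blocks the sodium-coupled glucose transporters of gut and kidney. The labels give 6 mice per diet, 3 to a cage, with a dark period during the daytime, and all had free access to food. Whole liver RNA was hybridised to 1-colour Affymetrix arrays, 1 array for each labelled mouse (24 in all). All values below are quantile-normalized log2 signals with a floor of 3.00, in which a difference of 1 is a doubling. Signals of different probe sets are not comparable, so each gene is compared only with itself.

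The arrays did not hold 24 separate livers. Of the 276 pairs of arrays, 13 differed with an SD of only 0.0436 to 0.0577 (log2, over 1463 well measured genes), 8 more with 0.108 to 0.137, and the other 255 with 0.164 to 0.547. The second class lies nearer to the other pairs than to the first, so that its arrays share 1 RNA is an assumption. Fits with only the first class, the near-identical arrays, joined are given further below. Arrays in the first 2 classes were averaged as 1 RNA. This gave 11 RNA samples, namely 4 control (replicates 1 and 3 averaged, 2 and 4 averaged, 5, and 6), 3 at 0.1% (replicates 2, 4 and 5), 2 at 0.5% (a 4-array sample of replicates 1, 2, 3 and 6, and a 2-array sample of replicates 4 and 5) and 2 at 1.0% (a 4-array sample of replicates 2, 3, 5 and 6, and replicate 4 alone). One further RNA carried labels of both 0.1% (replicates 1, 3 and 6) and 1.0% (replicate 1) and entered no comparison. Values are listed in that order throughout. The p-values measure only the spread between these samples, and the 3 comparisons against control share the same 4 control samples.

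Some samples stood apart in genes outside the list. The 4-array sample at 0.5% had a mean deviation of -1.37 over 9 clock output genes, against -0.28 to 0.28 in control liver, and the clock gene Dbp stood at 5.24 in it against 7.63 to 9.87. Replicate 4 at 0.1% had a 3' minus 5' actin difference of 2.32, against 1.31 to 1.54 in control liver, and its mean deviations were -0.41 over 11 Kupffer cell markers and -0.49 over 8 sinusoidal endothelial markers. The 9 measured hepatocyte markers deviated by -0.19 to 0.09 over all 11 samples, and albumin (Alb) stood between 13.41 and 13.59. Of 6 adipocyte markers only Plin4 passed the filter, at 3.00 to 4.40, near the floor. In whole liver, fewer cells of a type and less RNA per cell cannot be told apart.

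Promoters of the list were searched for the receptor's half-site, because these genes are textbook targets. Windows covered the 250 bases before a RefSeq start site (GRCm38.p6), and 29 of the 34 genes had at least 1 window (33 windows in all). The half-site AGGTCA, on either strand, occurred in 8 of the 33 windows and in 14.0% of all 32851 windows. These windows belonged to 8 of the 29 genes (Fabp1, Creb3l3, Acadm, Acadvl, Acot4, Cd36, Cpt1a and Plin2). The perfect repeat AGGTCANAGGTCA occurred in none of the 29 genes and in 0.0335% of all windows. With the fourth base of each copy left free, AGGNCANAGGNCA, which includes every perfect repeat, occurred in 1 of the 33 windows, that of Fabp1, and in 0.338% of all windows. A match is a description of the letters and no evidence of binding, and most known elements of this family lie outside so short a window.

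The following windows show the range within the list, each read 5′ to 3′ on the gene's own strand, with capitals marking a half-site or repeat on either strand. The window of Fabp1, the fatty acid binding protein of hepatocyte cytosol, lies at chr6:71199629-71199878 on the plus strand and holds the repeat 67 bases before the start and a further half-site 9 bases before it. The window of Creb3l3 lies at chr10:81092592-81092841 on the minus strand and holds 1 half-site. That of Acadm lies at chr3:153944644-153944893 on the minus strand and holds 1 half-site at its far end.
Fabp1: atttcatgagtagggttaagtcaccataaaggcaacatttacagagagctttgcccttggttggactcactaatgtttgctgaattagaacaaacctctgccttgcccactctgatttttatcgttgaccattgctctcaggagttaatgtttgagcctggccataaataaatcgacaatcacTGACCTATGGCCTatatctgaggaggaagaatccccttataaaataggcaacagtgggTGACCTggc
Creb3l3: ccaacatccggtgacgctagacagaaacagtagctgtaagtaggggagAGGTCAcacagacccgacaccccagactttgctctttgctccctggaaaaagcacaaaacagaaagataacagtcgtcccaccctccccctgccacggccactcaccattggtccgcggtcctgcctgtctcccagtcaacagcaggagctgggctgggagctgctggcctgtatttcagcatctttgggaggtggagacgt
Acadm: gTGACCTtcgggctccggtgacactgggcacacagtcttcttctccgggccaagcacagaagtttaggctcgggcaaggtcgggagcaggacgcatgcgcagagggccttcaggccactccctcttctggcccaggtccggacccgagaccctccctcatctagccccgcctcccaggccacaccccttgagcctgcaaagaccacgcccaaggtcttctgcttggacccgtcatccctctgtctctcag

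No gene of the list passed the test in any comparison. With limma and Benjamini-Hochberg adjustment over 13118 genes, 0 of 33 were called at 0.1% (background 0.0229% of genes), 0 at 0.5% (0.00762%) and 0 at 1.0% (0.0152%), and the lowest adjusted p in each was 0.488, 0.693 and 0.62. The test itself called 3, 1 and 2 genes of all those on the array, so the counts of 0 sit beside a background close to 0. At an unadjusted p under 0.05 there were 6 of the 33 at 0.1%, 4 at 0.5% and 6 at 1.0%, against 8.47%, 5.22% and 6.49% of all genes.

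At 0.1% the list was evenly divided, with 16 genes higher, 17 lower and a median log2 change of 0.00, the same median as over all genes. Leaving out 1 sample moved the count of lower genes there to between 12 and 23. At 0.5% it held 12 higher and 21 lower genes (median -0.03), where all genes had 0.01, and 15 to 21 were lower with 1 sample left out. At 1.0% it held 8 higher and 25 lower genes (median -0.17), where all genes had -0.02 and 54.0% of them were lower. Without the 4-array sample at 1.0% that median was -0.09, and without replicate 4 it was -0.24. With arrays left unscaled, 26, 29 and 32 genes were lower at the 3 doses, and 17, 21 and 27 relative to the median of all genes. Both 1.0% samples also lay below all controls in the mean deviation of 8 stellate cell markers (-0.25 to -0.21, control -0.20 to 0.19) and of 11 Kupffer cell markers (-0.13 to -0.08, control -0.05 to 0.11), and the part of these cells in the list's values was not tested.

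**Figure D1:**
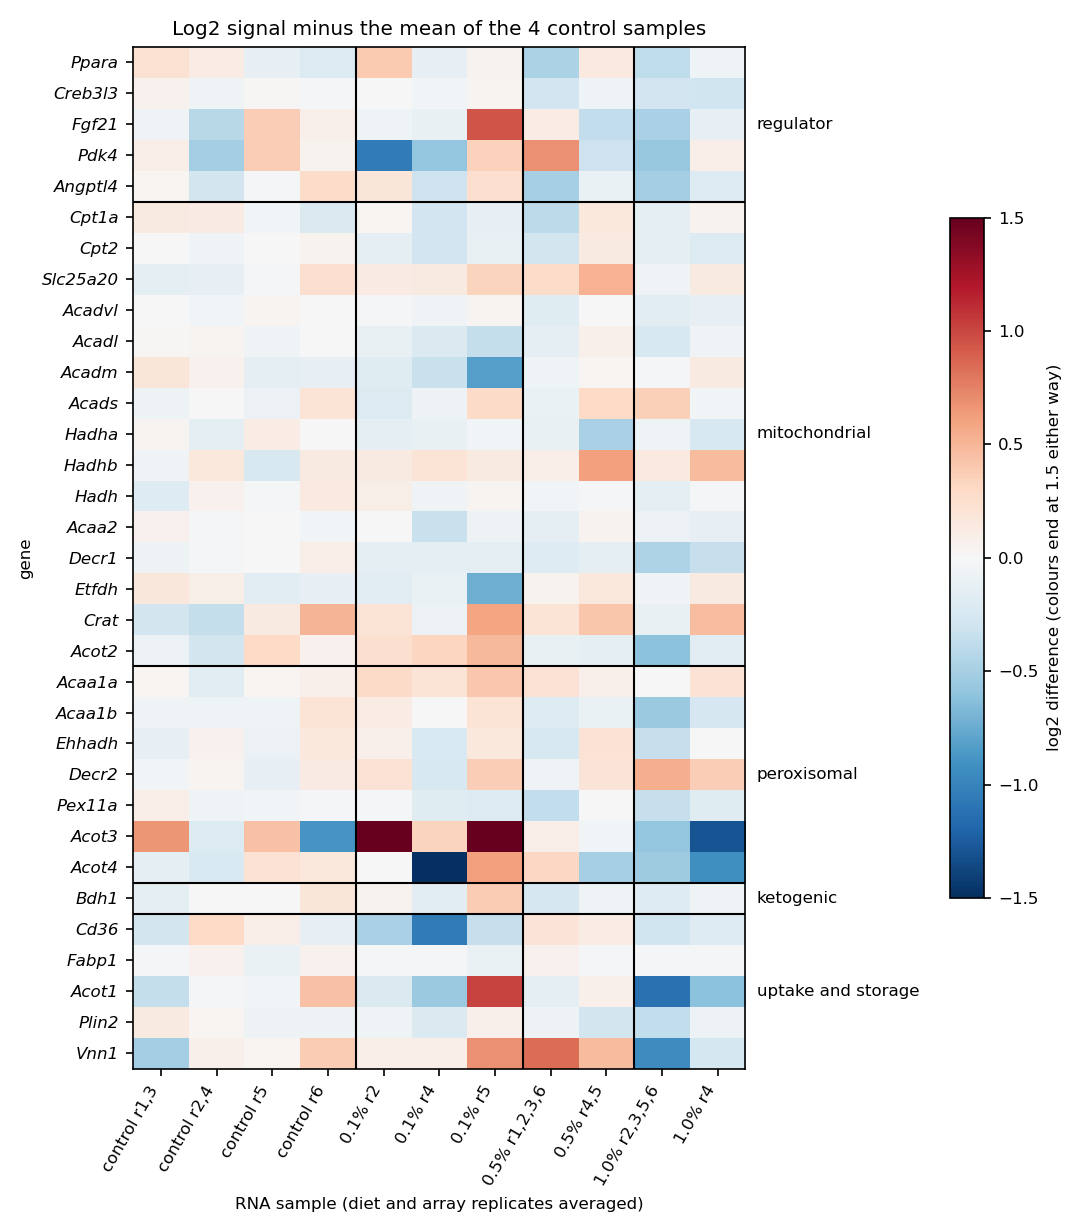
Log2 signal of the 33 genes (rows, grouped by role) in the 11 RNA samples (columns) minus the mean of the 4 control samples, from blue (lower) to red (higher), with colours ending at 1.5 either way. The 4-array sample at 1.0% has 20 of 33 genes below the whole control range, and replicate 4 at 0.1% has 17.

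Averaged over the 33 genes, the deviation from the control mean was -0.02, -0.06, 0.02 and 0.06 in control liver, 0.03, -0.18 and 0.18 at 0.1%, -0.04 and 0.04 at 0.5%, and -0.27 and -0.11 at 1.0%. Both 1.0% samples therefore lay below all controls, while the 0.1% samples lay on both sides of them. In replicate 4 at 1.0% the largest deviations were those of Acot3 and Acot4 (3.00 and 3.76, control means 4.29 and 4.68). Both are dim, and much of that sample's distance from the controls rests on them. The 4-array sample at 1.0% held the lowest of the 11 values for 9 of the 33 genes, and replicate 5 at 0.1% held the highest for 8. Replicate 4 at 0.1%, the sample with the high actin difference, held the lowest value for 5 genes and the highest for 0, and the part of RNA quality in this was not tested.

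At 1.0% all 5 regulators were lower than control, with a median of -0.29, and this count was 5 of 5 under each scaling of the arrays that was tried. None passed the test. In the 4-array sample at 1.0% all 5 lay below the control range, with a mean deviation of -0.45. In replicate 4 only 1 did, and the mean deviation of -0.12 lay within the control range (-0.23 to 0.12). Ppara itself, the receptor, stood at 10.21, 10.09, 9.86 and 9.77 in control liver, 10.37, 9.86 and 10.03 at 0.1%, 9.50 and 10.13 at 0.5%, and 9.60 and 9.92 at 1.0%. The groups overlapped at every dose. Its difference at 1.0% was -0.22 ± 0.19 (SE), with a 95% interval from -0.63 to 0.18. Its other probe sets gave -0.42 ± 0.13 and -0.59 ± 0.17 at 0.5%, where the one used gave -0.16 ± 0.19.

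Creb3l3 encodes a membrane-bound transcription factor of the liver endoplasmic reticulum that acts with PPARA on fasting genes, Fgf21 among them. It stood at 11.07, 10.94, 11.03 and 10.99 in control liver, 11.02, 10.97 and 11.05 at 0.1%, 10.72 and 10.94 at 0.5%, and 10.72 and 10.71 at 1.0%. Its values at 0.1% lay within the control range, while both 1.0% values lay below it and were nearly equal. The difference was -0.29 ± 0.09 at 1.0% (limma, adjusted p = 0.745) and -0.18 ± 0.09 at 0.5%, where one sample equalled the lowest control to 2 decimals. The latter was -0.07 without the 4-array sample.

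The other regulators were more variable. Fgf21, the fasting hormone of liver, ranged from 5.60 to 7.03 over the 11 samples, with its highest value in replicate 5 at 0.1% and its lowest in the 4-array sample at 1.0%. Pdk4, the kinase that shuts off pyruvate dehydrogenase, ranged from 4.35 to 6.08 and was highest in the 4-array sample at 0.5%, the sample with low clock output. Angptl4, a secreted inhibitor of lipoprotein lipase, differed by -0.30 ± 0.19 at 0.5% and by -0.36 ± 0.19 at 1.0%, and its groups overlapped at both doses.

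The mitochondrial genes showed the smallest shift of the larger groups at 1.0%, where 9 of 15 were lower (median -0.08). With arrays centred on their medians instead, 14 of 15 were lower, and 12 of 15 relative to the median of all genes, which itself moved to -0.20. The steps by which acyl groups enter mitochondria by way of carnitine are encoded by Cpt1a, Slc25a20 and Cpt2. Cpt1a, the rate-controlling acyltransferase, differed by -0.12 ± 0.14, -0.12 ± 0.16 and -0.05 ± 0.16 at 0.1%, 0.5% and 1.0%, and its groups overlapped throughout. One other probe set of Cpt1a gave 0.29 ± 0.20, 0.14 ± 0.22 and -0.06 ± 0.22, and another gave 0.31 ± 0.20, -0.04 ± 0.22 and 0.13 ± 0.22. Cpt2, its partner at the inner membrane, differed by -0.17 ± 0.11, -0.07 ± 0.12 and -0.17 ± 0.12. A dimmer probe set of Cpt2 gave 0.05 ± 0.21, 0.32 ± 0.24 and -0.02 ± 0.24.

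Slc25a20, the carnitine-acylcarnitine translocase between those enzymes, had the lowest p of the list at 0.5%. It stood at 10.11, 10.12, 10.22 and 10.49 in control liver, 10.36, 10.37 and 10.57 at 0.1%, 10.51 and 10.76 at 0.5%, and 10.19 and 10.38 at 1.0%. Both 0.5% samples lay above all controls, one of them by only 0.02, and the 1.0% samples were back within the control range. The difference at 0.5% was 0.40 ± 0.13 (1.32-fold, limma adjusted p = 0.693). A dimmer probe set of the gene gave -0.17 ± 0.15 at that dose, so its direction rests on the probe set.

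Within the spiral of oxidation the acyl-CoA dehydrogenases take the first step, each for its own chain length. Acadm, the medium-chain enzyme, stood at 11.03, 10.92, 10.71 and 10.73 in control liver, 10.67, 10.52 and 10.02 at 0.1%, 10.78 and 10.88 at 0.5%, and 10.82 and 10.98 at 1.0%. All 3 samples at 0.1% lay below the controls, replicate 5 by the most, and the higher doses overlapped the controls. The difference at 0.1% was -0.44 ± 0.14 (1.36-fold lower, limma adjusted p = 0.488) and -0.25 without replicate 5.

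Acadl, the long-chain enzyme, stood at 10.52, 10.54, 10.43 and 10.51 in control liver, 10.39, 10.28 and 10.14 at 0.1%, 10.35 and 10.58 at 0.5%, and 10.26 and 10.45 at 1.0%. Again all 3 samples at 0.1% lay below the controls and replicate 5 was the lowest of the 11. The difference was -0.23 ± 0.10 (limma, adjusted p = 0.551). Etfdh, which passes the electrons of all these dehydrogenases to ubiquinone, had its lowest value in the same replicate, 9.34 against 9.91 to 10.24 in control liver, and differed by -0.33 ± 0.14 at 0.1%. Acadvl and Acads, the very-long-chain and short-chain enzymes, differed by -0.01 ± 0.08 and 0.00 ± 0.15 there.

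Hadha and Hadhb encode the paired subunits of the mitochondrial trifunctional protein, which carries out the later steps on long chains. They are neighbours in opposite orientation, and their promoter windows share 228 bases at chr5:30155003-30155230. The window of Hadhb, on the plus strand at chr5:30155003-30155252, is given with the shared bases in capitals, to show how close the start sites lie.
Hadhb: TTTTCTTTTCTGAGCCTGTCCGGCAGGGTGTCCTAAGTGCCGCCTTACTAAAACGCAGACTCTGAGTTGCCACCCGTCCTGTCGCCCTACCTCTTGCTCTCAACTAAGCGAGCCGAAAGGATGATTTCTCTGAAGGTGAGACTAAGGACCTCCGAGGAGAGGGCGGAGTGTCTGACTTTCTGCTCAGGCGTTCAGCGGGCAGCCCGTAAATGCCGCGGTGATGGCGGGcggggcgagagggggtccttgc

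Hadha stood at 9.99, 9.80, 10.06 and 9.95 in control liver, 9.80, 9.84 and 9.91 at 0.1%, 9.84 and 9.46 at 0.5%, and 9.88 and 9.71 at 1.0%. The 2-array sample at 0.5% and replicate 4 at 1.0% lay below the control range. The difference at 0.5% was -0.30 ± 0.12 (limma, adjusted p = 0.881) and -0.11 without the 2-array sample. Hadhb stood at 10.86, 11.07, 10.67 and 11.04 in control liver, 11.05, 11.12 and 11.05 at 0.1%, 11.01 and 11.53 at 0.5%, and 11.06 and 11.39 at 1.0%. The same 2-array sample was the highest of the 11. The difference at 0.5% was 0.36 ± 0.15 (limma, adjusted p = 0.897) and 0.10 without that sample. The 2 other Hadhb probe sets gave -0.13 ± 0.10 and 0.64 ± 0.26, so the direction of Hadhb depends on the probe set.

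Decr1, the mitochondrial dienoyl-CoA reductase needed to oxidise polyunsaturated fatty acids, had the lowest p of the list at 1.0%. It stood at 10.30, 10.36, 10.39 and 10.48 in control liver, 10.25, 10.25 and 10.23 at 0.1%, 10.19 and 10.25 at 0.5%, and 9.92 and 10.03 at 1.0%. Every phloridzin sample of the comparisons lay below every control sample, and both 1.0% samples lay below all the others. The RNA with labels of both 0.1% and 1.0%, which entered no comparison, stood at 10.44, within the control range. The difference was -0.14 ± 0.08 at 0.1%, -0.17 ± 0.09 at 0.5% and -0.41 ± 0.09 at 1.0% (1.33-fold lower, 95% interval from -0.61 to -0.20, limma adjusted p = 0.62). It passed the adjusted test at 1.0% with the floor raised to 32 (adjusted p = 0.0414). The second, dimmer probe set of Decr1 was lower at each dose too (-0.08 ± 0.15, -0.16 ± 0.17 and -0.20 ± 0.17).

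**Figure D2:**
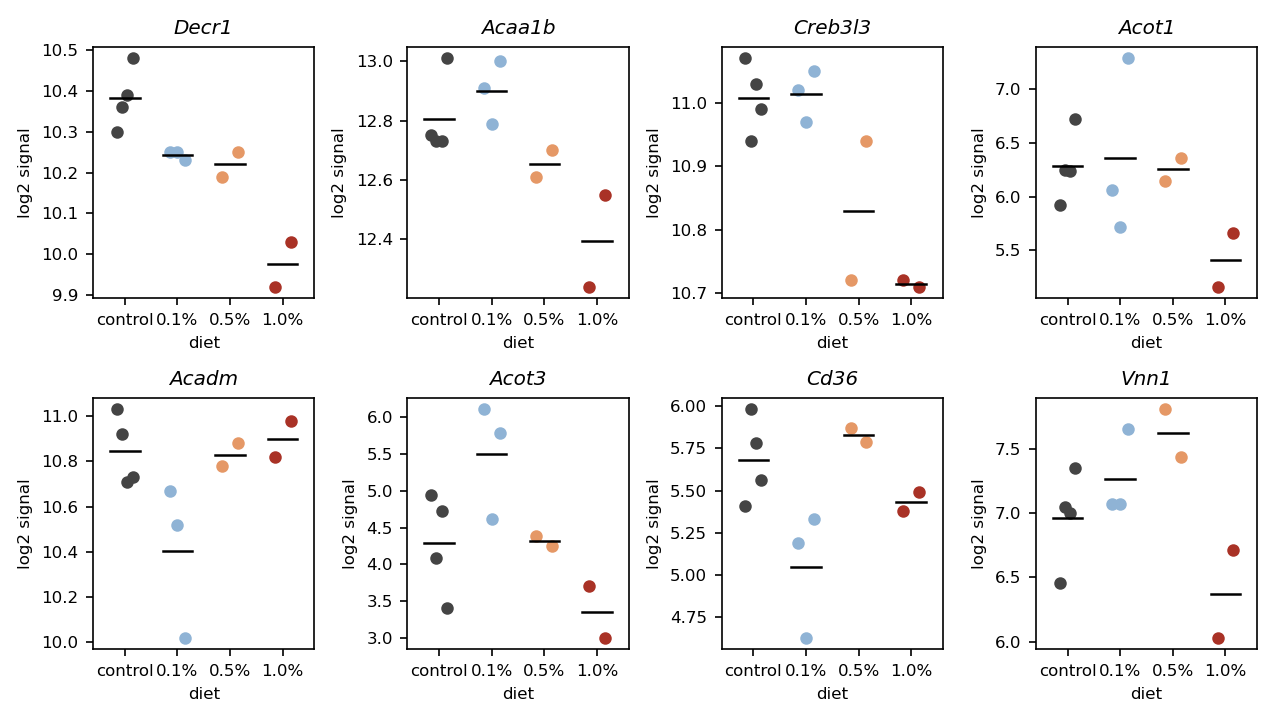
Log2 signal (vertical axes, each with its own range) of 8 genes in the 11 RNA samples by diet, with 1 point per sample and a bar at the group mean. Decr1, Acaa1b, Creb3l3 and Acot1 have both 1.0% samples below all 4 controls, and Acadm and Cd36 have all 3 samples at 0.1% below them.

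Hadh, the short-chain hydroxyacyl-CoA dehydrogenase, differed by no more than 0.08 in size at any dose, and its groups overlapped, while its dimmest probe set gave 0.47 ± 0.21, 0.59 ± 0.24 and 0.32 ± 0.24. Acaa2, the mitochondrial thiolase, differed by -0.14 ± 0.09, -0.05 ± 0.11 and -0.11 ± 0.10 at 0.1%, 0.5% and 1.0%. A second probe set of Acaa2 gave -0.35 ± 0.12, -0.41 ± 0.13 and -0.22 ± 0.13, and the other gave -0.07 ± 0.10, -0.20 ± 0.11 and 0.01 ± 0.11. Crat, carnitine acetyltransferase, gave 0.17 ± 0.26 at 1.0% from the probe set used and -0.64 ± 0.24 from a second. Acot2, a mitochondrial acyl-CoA thioesterase, differed by 0.35 ± 0.19 at 0.1% and by -0.39 ± 0.21 at 1.0%.

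Peroxisomes shorten very long and branched fatty acids, and their enzymes are among the most responsive PPARA targets of rodent liver. At 1.0% there were 5 of 7 lower, with a median of -0.26, and 6 of 7 with arrays centred or unscaled (5 of 7 relative to the median of all genes). Acaa1b, a peroxisomal ketoacyl-CoA thiolase, stood at 12.75, 12.73, 12.73 and 13.01 in control liver, 12.91, 12.79 and 13.00 at 0.1%, 12.61 and 12.70 at 0.5%, and 12.24 and 12.55 at 1.0%. Both higher doses lay below all controls, and the 4-array sample at 1.0% was the lowest. The difference was -0.41 ± 0.11 at 1.0% (1.33-fold lower, limma adjusted p = 0.675), and -0.25 without that sample.

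Acaa1a is a close paralog of Acaa1b. It stood at 7.98, 7.79, 7.98 and 8.03 in control liver, 8.24, 8.16 and 8.36 at 0.1%, 8.17 and 8.03 at 0.5%, and 7.95 and 8.17 at 1.0%. All 3 samples at 0.1% lay above the controls, by 0.31 ± 0.12 on average (limma, adjusted p = 0.525). The 2 probe sets of Acaa1a were both higher at 0.1% (0.31 and 0.40) but gave 0.12 ± 0.13 and -0.58 ± 0.19 at 1.0%. Near-identical copies such as these can share probes, so the split between them is uncertain.

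Decr2, the peroxisomal dienoyl-CoA reductase, was the only gene of the list above all controls at 1.0% in both samples. It stood at 7.07, 7.15, 6.99 and 7.23 in control liver, 7.33, 6.87 and 7.48 at 0.1%, 7.06 and 7.30 at 0.5%, and 7.66 and 7.48 at 1.0%. The 0.1% samples lay on both sides of the controls. The difference at 1.0% was 0.46 ± 0.18 (1.37-fold, limma adjusted p = 0.758), opposite in sign to its mitochondrial counterpart Decr1. With no scaling of the arrays it was 0.06, where the median of all genes moved to -0.35.

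Acot3 and Acot4 encode peroxisomal acyl-CoA thioesterases, and both were dim. Acot3 stood at 4.95, 4.08, 4.73 and 3.41 in control liver, 6.11, 4.62 and 5.79 at 0.1%, 4.39 and 4.25 at 0.5%, and 3.71 and 3.00 at 1.0%. It was highest in replicates 2 and 5 at 0.1% and reached the floor in replicate 4 at 1.0%, the only value of the list at the floor (1 of 363). The difference from control was 1.21 ± 0.40 at 0.1% (limma, adjusted p = 0.488) and -0.93 ± 0.45 at 1.0% (adjusted p = 0.772). Acot4 ranged from 3.17 in replicate 4 at 0.1% to 5.29 in replicate 5 at the same dose. It differed by -0.30 ± 0.40, -0.09 ± 0.45 and -0.73 ± 0.45 with rising dose. Its second probe set gave 0.48 ± 0.25, 0.28 ± 0.29 and -0.05 ± 0.29.

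Ehhadh, the peroxisomal bifunctional enzyme and a classical PPARA target, differed by 0.00 ± 0.14, -0.01 ± 0.16 and -0.18 ± 0.16 with rising dose. Pex11a, a membrane protein of peroxisome division, differed by -0.13 ± 0.12, -0.18 ± 0.14 and -0.26 ± 0.14, and both 1.0% samples lay below the controls. Its second probe set gave 0.08 ± 0.14 at 1.0%.

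Ketogenesis itself was represented by Bdh1, the mitochondrial enzyme that reduces acetoacetate to hydroxybutyrate. It stood at 11.00, 11.13, 11.13 and 11.32 in control liver, 11.19, 10.97 and 11.52 at 0.1%, 10.89 and 11.07 at 0.5%, and 10.95 and 11.08 at 1.0%. No dose was separate from control. The difference was 0.08 ± 0.12, -0.17 ± 0.14 and -0.13 ± 0.14, and the 95% interval at 1.0% ran from -0.42 to 0.17.

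Of the genes of fatty acid uptake, activation and storage, 5 of 5 were lower at 1.0%, with a median of -0.25, or 4 of 5 relative to the median of all genes when arrays were centred or left unscaled. Acot1, a cytosolic acyl-CoA thioesterase, stood at 5.92, 6.25, 6.24 and 6.72 in control liver, 6.06, 5.72 and 7.29 at 0.1%, 6.15 and 6.36 at 0.5%, and 5.16 and 5.66 at 1.0%. Both 1.0% samples were the lowest of the 11, and replicate 5 at 0.1% was the highest. The difference at 1.0% was -0.87 ± 0.35 (1.83-fold lower, limma adjusted p = 0.759).

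Cd36, the fatty acid translocase of the cell surface, stood at 5.41, 5.98, 5.78 and 5.56 in control liver, 5.19, 4.63 and 5.33 at 0.1%, 5.87 and 5.79 at 0.5%, and 5.38 and 5.49 at 1.0%. All 3 samples at 0.1% lay below the controls, the lowest being replicate 4, which also had low Kupffer and endothelial marker levels. Cd36 is made by those cells as well as by hepatocytes, and their part in the difference was not tested. The difference at 0.1% was -0.63 ± 0.21 (1.55-fold lower, limma adjusted p = 0.488) and -0.42 without that replicate. Its other probe sets gave -0.37 ± 0.24 and 0.15 ± 0.27.

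Vnn1, the pantetheinase that recycles the vitamin moiety of coenzyme A, went in different directions at the higher doses. It stood at 6.46, 7.05, 7.00 and 7.35 in control liver, 7.07, 7.07 and 7.66 at 0.1%, 7.81 and 7.44 at 0.5%, and 6.03 and 6.71 at 1.0%. Both 0.5% samples lay above the controls, and the 4-array sample at 1.0% was the lowest of the 11. The difference from control was 0.66 ± 0.26 at 0.5% (limma, adjusted p = 0.842) and -0.60 ± 0.26 at 1.0% (adjusted p = 0.761). A second probe set gave 0.68 ± 0.30 and -0.59 ± 0.30. The neutrophil marker score at 0.5% was 0.97 in the 2-array sample and 0.04 in the 4-array sample, against -0.34 to 0.19 in control liver. The Vnn1 difference at 0.5% was 0.84 without the 2-array sample and 0.48 without the 4-array sample. The part of neutrophils in the Vnn1 values was not tested.

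Plin2, which coats lipid droplets, differed by -0.07 ± 0.10, -0.18 ± 0.12 and -0.23 ± 0.12 with rising dose, and both 1.0% samples lay below the controls. Fabp1, whose promoter window holds the repeat, ranged only from 13.89 to 14.06. It sits at the top of the array, where quantile normalization leaves few distinct values.

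Counting separation alone, without a test, 1 gene of the list lay above all controls and 5 below at 0.1% (background 4.13% and 3.74% of all genes), 2 above and 3 below at 0.5% (9.16% and 8.69%), and 1 above and 10 below at 1.0% (8.23% and 12.4%). The 10 at 1.0% were Creb3l3, Cpt2, Acadvl, Acaa2, Decr1, Acaa1b, Pex11a, Acot4, Acot1 and Plin2. They come from all role groups except the ketogenic one. Other probe sets at 1.0% gave -0.05 ± 0.29 for Acot4, 0.08 ± 0.14 for Pex11a and -0.02 ± 0.24 for Cpt2. Those of Acaa2 gave -0.22 ± 0.13 and 0.01 ± 0.11, and that of Decr1 gave -0.20 ± 0.17.

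**Figure D3:**
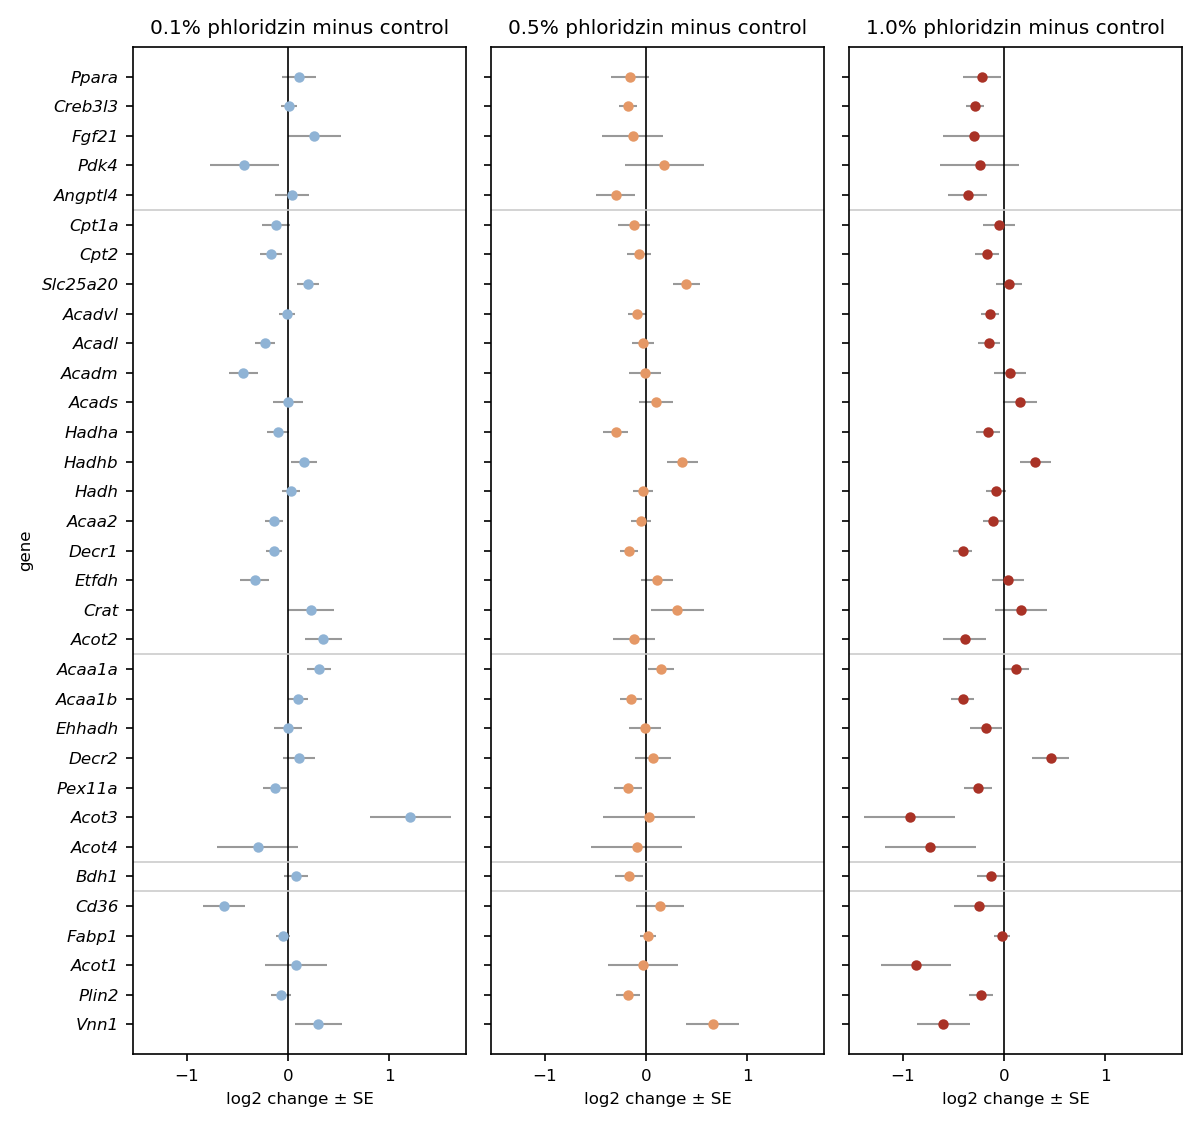
Log2 change against control (horizontal axes, points with bars of 1 SE) for the 33 genes (vertical axis, grouped by role with grey lines) at 0.1%, 0.5% and 1.0% phloridzin. No change passed the adjusted test. The largest at 0.1% was Acot3 (1.21), and the largest decreases at 1.0% were Acot3 (-0.93) and Acot1 (-0.87).

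Doses were also compared directly in the same fit. Between 0.5% and 0.1% there were 0 genes of the list called (background 0%) and 5 with an unadjusted p under 0.05 (10.7% of all genes). Cd36 was higher at 0.5% by 0.78 ± 0.25 (limma, adjusted p = 0.339), and Acadm by 0.43 ± 0.17 (adjusted p = 0.411), or 0.23 without replicate 5 at 0.1%. With probe sets marked x, s or a left out, which removes the Cd36 probe set used, the Cd36 difference was 0.09. With the probe sets used, for both genes every 0.5% sample exceeded every 0.1% sample.

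Between 1.0% and 0.1% there were 0 of 33 called (background 0.0152%) and 9 with an unadjusted p under 0.05 (12.2% of all genes), with 22 of 33 lower at 1.0%. Acot3 differed by -2.15 ± 0.48 (limma, adjusted p = 0.173), a size that the floor sets, with 1 of the 1.0% values at it. It was -0.63 with a floor of 32 and -2.53 with a floor of 1. Acaa1b differed by -0.50 ± 0.12 (adjusted p = 0.182). With only near-identical arrays joined, which gave 13 samples, these 2 passed with adjusted p of 0.0311 and 0.0208.

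Between 1.0% and 0.5% there were 0 of 33 called (background 0%) and 3 with an unadjusted p under 0.05 (4.21% of all genes), with 27 of 33 lower at 1.0%. Vnn1 differed by -1.26 ± 0.30 (2.39-fold lower, limma adjusted p = 0.989), and it passed with an adjusted p of 0.0348 when only near-identical arrays were joined. Slc25a20 differed by -0.35 ± 0.15 (adjusted p = 1) and by -0.23 without the 2-array sample at 0.5%. Without the 4-array sample at 1.0%, 17 of 33 were lower.

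A straight line fitted to the phloridzin content of the diet gave 23 of 33 genes a negative slope, with a median of -0.15 per 1% (all genes -0.02), 0 called (background 0%) and 10 with an unadjusted p under 0.05 (8.83% of all genes). The lowest p belonged to Acaa1b, at -0.45 ± 0.11 (limma, adjusted p = 0.442), and Decr1, at -0.36 ± 0.09 (adjusted p = 0.442). In the F-test over the 4 diets 0 were called (background 0.0152%), 9 of 33 had an unadjusted p under 0.05 (9.25% of all genes), and the lowest adjusted p was 0.389.

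**Figure D4:**
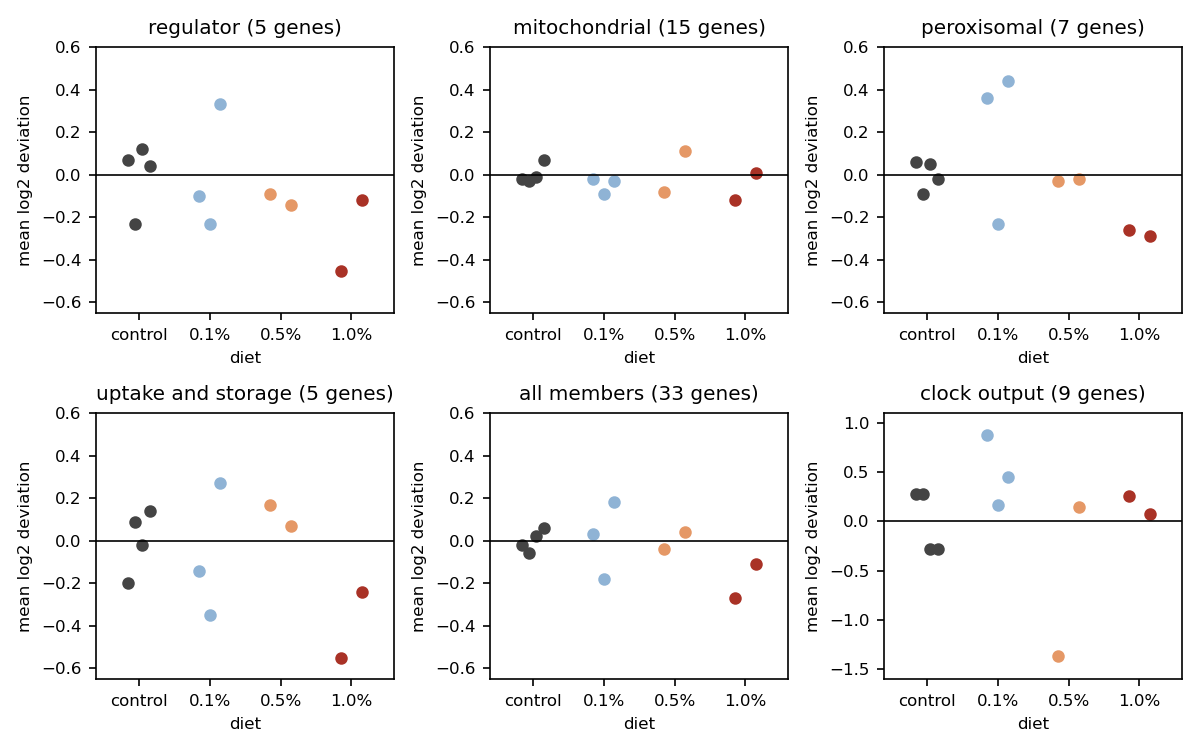
Mean log2 deviation from the control mean (vertical axes) in each of the 11 RNA samples, by diet, for 4 role groups, all 33 genes and 9 clock output genes, the last on a wider axis. Both 1.0% samples lie below all controls for the peroxisomal (-0.26 and -0.29) and the uptake and storage genes (-0.55 and -0.24), and the 4-array sample at 0.5% lies at -1.37 for clock output. In replicate 4 at 1.0% the peroxisomal value rests on the dim Acot3 and Acot4 (3.00 and 3.76, control means 4.29 and 4.68). Of the 7 peroxisomal genes, 2 lay above the control range in that sample and 4 below.

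Other genes of fatty acid oxidation that were not on the list were described in the same way. Of 46 such genes 39 were tested and 0 passed the adjusted limma test at any dose, with 7, 2 and 2 (17.9%, 5.13% and 5.13%) at an unadjusted p under 0.05, beside 8.47%, 5.22% and 6.49% of all genes. Their median change was -0.06, -0.04 and -0.04 at 0.1%, 0.5% and 1.0%, with 24, 22 and 26 of 39 lower. The genes with the lowest p at 0.1% were Crot, Acat1 and Mgll.

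Crot, the peroxisomal carnitine octanoyltransferase, stood at 11.93, 11.91, 11.81 and 11.85 in control liver and at 11.51, 11.52 and 11.30 at 0.1%, all below the controls, a difference of -0.43 ± 0.11 (limma, adjusted p = 0.477). Acat1, the mitochondrial acetoacetyl-CoA thiolase, differed by -0.36 ± 0.10 at 0.1%, also with no overlap. Mgll, the monoglyceride lipase, was higher by 0.34 ± 0.10 at 0.1% and lower at 1.0% (-0.29 ± 0.11), without overlap at either dose. At 0.5% the lowest p belonged to Cyp4a12a, a fatty acid hydroxylase (-0.35 ± 0.13), Lpin1, a phosphatidate phosphatase (-0.57 ± 0.26), and Slc16a1, a monocarboxylate transporter (0.41 ± 0.20). Each of these moved when 1 sample was left out. Cyp4a12a was -0.10 without the 2-array sample, Lpin1 was -0.17 without the 4-array sample, which had low clock output, and Slc16a1 was 0.15 without it. At 1.0% it belonged to Acsl4, an acyl-CoA synthetase (0.50 ± 0.15), Mgll, and Ech1, a dienoyl-CoA isomerase (-0.26 ± 0.13).

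Markers of feeding state were read beside these values. Over 10 fasting genes the mean deviation was -0.12 to 0.08 in control liver, -0.44 to -0.16 at 0.1%, -0.28 to -0.20 at 0.5% and -0.47 to -0.10 at 1.0%. At 1.0%, 4 of the 10 were higher and 6 lower, and replicate 4 lay within the control range. Over 10 lipogenic genes the mean deviation was -0.31 to 0.31 in control liver, 0.07 to 0.43 at 0.1%, 0.11 to 0.19 at 0.5% and 0.15 to 0.27 at 1.0%. Of these genes 8, 8 and 7 were higher at the 3 doses and 2, 2 and 3 lower. The part of feeding state in the values of the list was not tested.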

How the data were processed

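Liver transcripts of male BALB/c mice on 4 diets were measured on 24 Affymetrix arrays. The table deposited by the authors lists 45101 probe sets by linear intensity, with array medians of 9.49 to 18.0. Their summary method, background step and scaling were not given in the sources used here. Without detection calls or scan dates, batches were not tested, and the number of samples limits the precision.

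Intensities were quantile-normalized, floored at 8 and log2-transformed. Probe sets in the lowest 40% of mean signal were dropped (27023 kept), and the brightest remaining set stood for a gene. The platform annotation, which can be old, pairs 34945 probe sets with 1 symbol and 932 with several, and the latter were not named. Arrays whose log2 differences had an SD under 0.15 were averaged as 1 RNA (under 0.08 marks repeat hybridisations). The 11 samples were fitted with limma 3.58.1 in R 4.3.3 (lmFit, then eBayes with a trend), leaving 7 residual degrees of freedom without covariates. Tests were two-sided, with Benjamini-Hochberg adjustment over 13118 genes and calls at an adjusted p under 0.05. The fit was tested on simulated data.

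Members, lists and thresholds were chosen with earlier results of these data known. Full values were given for the 5 members with the lowest p at each dose, for the 2 with the lowest p in each pair of doses and the slope, and, by role, for Ppara and Bdh1. Of the other pathway genes, the 3 with the lowest p per dose were named. The main effects of the alternative settings are summarised at the end.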

Additional observations from a re-analysis of the deposited data

Results flagged for a closer look

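Of the 33 genes checked for a sample far from the others in control liver, 1 had one. Acaa1b stood at 13.01 in control replicate 6, against 12.73 to 12.75 in the other control samples, a gap of 0.901 of the group's range. Chance flags about 1 in 20 such groups. Without that sample Acaa1b was still lower at 1.0%, as its values of 12.24 and 12.55 lie below every control.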

How the results depend on the processing

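No gene of the list was called in any of the 11 fits that left out 1 sample. These moved the median over the list to -0.08 to 0.06 at 0.1%, -0.10 to 0.04 at 0.5%, -0.24 to -0.09 at 1.0%, -0.10 to 0.04 for 0.5% against 0.1%, -0.23 to -0.06 for 1.0% against 0.1%, -0.23 to -0.02 for 1.0% against 0.5%, and -0.18 to -0.07 for the slope. Genes lower at 1.0% numbered 23 to 29.

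With all 24 arrays as separate samples, which counts repeats of 1 RNA as mice, 11, 2 and 5 were called at 0.1%, 0.5% and 1.0%, then 13, 15 and 3 between doses (0.5% against 0.1%, 1.0% against 0.1%, 1.0% against 0.5%), 3 for the slope (median -0.11) and 21 by the F-test. The same arrays with replicate block gave 11, 2 and 6, then 14, 13 and 3, 2 for the slope (median -0.11) and 20. Same-numbered arrays had mean correlations of -0.0397 to 0.0586, single pairs from -0.154 to 0.418. The highest fell among arrays numbered 1, where those at 0.1% and 1.0% were of 1 RNA. Because the 24 arrays hold repeats of 1 RNA under several numbers, this cannot decide whether the numbers pair mice. With the RNA as a random block (correlation 0.63) the medians were -0.13 at 1.0%, -0.06 for 1.0% against 0.1% and -0.10 for the slope. Mgll at 1.0% reversed to 0.03. The same fit gave smaller decreases at 1.0% for Decr1 (-0.27), Acaa1b (-0.22), Creb3l3 (-0.12) and Acot1 (-0.38). With the 11 samples these were -0.41, -0.41, -0.29 and -0.87. With only near-identical arrays joined, 3 were called for 1.0% against 0.1% and 1 for 1.0% against 0.5%, and the median for 0.5% against 0.1% was -0.08.

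With arrays centred on their medians the list's medians were -0.09, -0.21 and -0.45 at the 3 doses, -0.08, -0.33 and -0.20 between doses and -0.43 for the slope, where the medians of all genes were -0.08, -0.09 and -0.20 at the doses. With no scaling they were -0.17, -0.31 and -0.61, then -0.10, -0.41 and -0.25, and -0.57, beside -0.16, -0.19 and -0.35 over all genes. A floor of 32 gave 1 call at 1.0%. The other 11 settings called no gene of the list. Among them were no filter, a floor of 1, the mean of a gene's probe sets and eBayes without trend. Another entered the RNA with labels of 2 diets under both diets (15 samples). Leaving out probe sets marked x, s or a gave medians of -0.05 at 0.1% and -0.11 at 0.5%, and reversed Hadhb at 0.5% to -0.13. The cause was not tested in any of these. Calls over all genes at 0.1%, 0.5% and 1.0% reached 2726, 448 and 402 with arrays as separate samples, with or without the block, and fell to 0 in some of the other fits.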

Other observations

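The RNA that carried labels of both 0.1% and 1.0% had a mean deviation of 0.05 over the 33 genes. Etfdh stood at 9.12 in it, Acadm at 10.15 and Acadl at 9.80, and for Etfdh and Acadl this lay below all 11 samples of the comparisons. Ppara, at 10.43, Creb3l3, at 11.30, and Crat, at 7.65, lay above all of them. Acot3 stood at 6.02, close to its highest values at 0.1%.

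Of the 16 genes with more than 1 probe set above the filter, 10 had probe sets of opposite direction at 0.1%, 10 at 0.5% and 8 at 1.0%.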
